A study of Mus musculus with 6 samples.

Results

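The 38 genes described here are used as markers of macrophages and other leukocytes, and were read in RNA from cultures of mouse skin fibroblasts. Which cells of the cultures made that RNA was not tested. The 38 genes were taken by name from a list of macrophage, dendritic cell and major histocompatibility complex (MHC) class II genes, and are 38 of the 43629 genes in the deposited tables. Primary dermal fibroblasts, grown from the skin of newborn mice on a mixed background of 50% C57Bl/6 and 50% FVB/N, were sequenced at passage 1 after 6 days in culture. All the mice carried Col1a2Cre, a Cre recombinase driven in fibroblasts, so that control and mutant cells share the Cre. In the caNrf2 group (3 libraries) Cre was combined with caNrf2, a mutant form of the stress-response factor Nrf2 (gene Nfe2l2) that is constitutively active. In the ctrl group (Col1a2Cre-wt, 3 libraries) it was not. The design states that cells of 3 mice per group were used, and the labels do not name the mouse of each library, so p-values measure the spread between these libraries. Markers of the labelled cell type were abundant in every library, which does not exclude other cells. The 8 fibroblast markers, among them Col1a1 and Pdgfra, summed to 34189 to 50620 CPM (counts scaled to library size) in ctrl. In caNrf2 libraries they summed to 24378 to 29839 CPM.

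Macrophages settle in the dermis before and after birth, adhere to plastic as fibroblasts do, and depend on the receptor Csf1r, whose ligand Csf1 fibroblasts secrete. Their identity rests on the transcription factor PU.1 (Spi1), and they are known for taking up debris and antibody-coated particles and for making the complement protein C1q. MHC class II molecules, which display peptides to T cells, are a property of dendritic cells, B cells and activated macrophages and need the transactivator Ciita. In RNA from a whole culture, more cells of a type and more RNA per cell cannot be told apart.

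Most of the macrophage genes were higher in the caNrf2 cultures, and none of the MHC class II genes was called. Of the 38 genes, 30 rose, 0 fell, 5 did not pass the test and 3 (Cd163, H2-Aa and H2-Eb1) had too few counts to be tested. The test was edgeR's quasi-likelihood F test over 15341 genes, in which a gene is called at a Benjamini-Hochberg adjusted p below 0.05. Over all genes tested, 12.5% were called higher and 9.03% lower. By DESeq2 and by limma-voom the counts among the 38 were also 30 higher and 0 lower. Of the 30, 28 rose at least 2-fold and 13 at least 4-fold. The median log2 fold change of the 35 tested genes was 1.804, beside -0.003 over all genes tested. Of those 35, 7 passed the filter on low counts only with the caNrf2 libraries: Spi1, Cx3cr1, Cd52, Pf4, Fcgr1, Aif1 and H2-Ab1. Called higher among them were Spi1, Cx3cr1, Cd52 and Pf4. Of the 28 that reached the filter level in all 3 ctrl libraries, 26 were called higher.

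**Figure D1:**
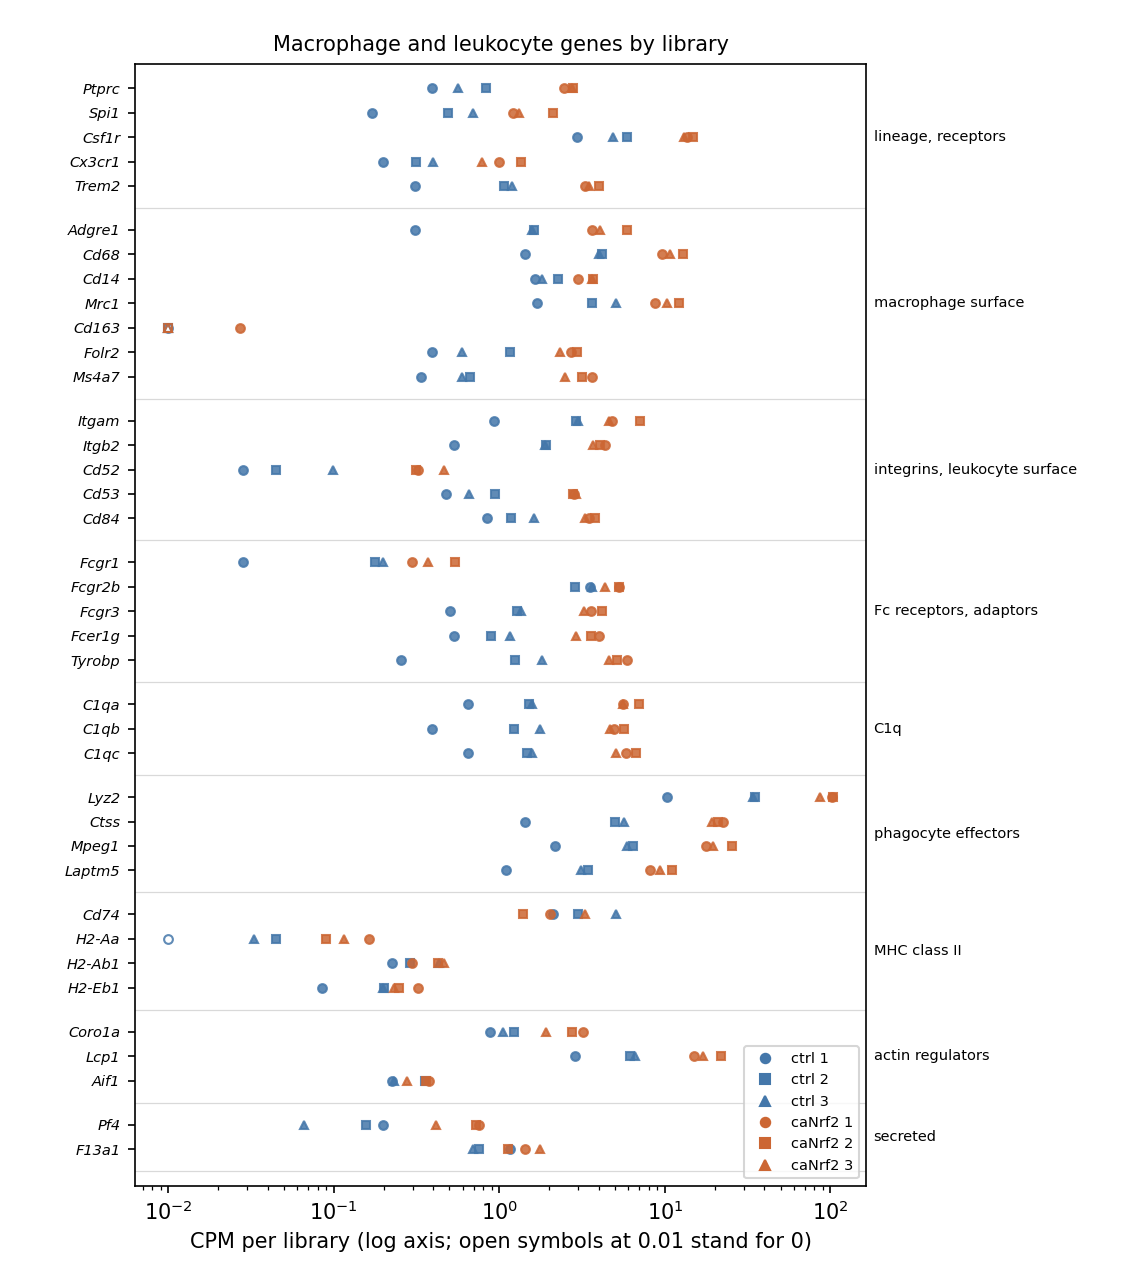
Level of each of the 38 genes in each library, in CPM on a log axis, with genes grouped by role, ctrl libraries in blue and caNrf2 libraries in orange; open symbols at the left stand for 0. In 33 genes the 3 caNrf2 symbols lie to the right of the 3 ctrl symbols, and ctrl 1 (blue circle) is the leftmost in most rows.

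The plot of levels by library shows the groups apart in 33 of the 38 genes: the lowest caNrf2 value exceeded the highest ctrl value. The 33 include H2-Aa and H2-Eb1, which were not tested. Over all genes tested this held for 22.0%. Over all 43629 genes, tested or not, it held for 3917, and 19197 of the 43629 had no count. The groups overlapped in Cd163, Cd74, H2-Ab1, Aif1 and F13a1. Summed over the 38 genes, the level was 42 CPM in ctrl 1, 102 in ctrl 2 and 105 in ctrl 3, against 279, 312 and 261 CPM in caNrf2 1, 2 and 3. On the length-corrected TPM scale the sums lay between 50.1 and 135 in ctrl and between 332 and 398 in caNrf2 libraries. The ctrl libraries were thus unequal, with ctrl 1 well below the others. In 28 of the 30 genes that rose, ctrl 1 was the lowest of all 6 libraries, the exceptions being Pf4 and Fcgr2b.

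Library totals ran from 30168400 to 45164208 expected counts, so that 1 count was worth 0.0223 to 0.033 CPM. Nfe2l2 itself was at 103 to 113 CPM in ctrl and at 352 to 430 CPM in caNrf2 libraries (3.48-fold, edgeR adjusted p = 5.96e-06). Mitochondrial transcripts, a sign of RNA quality, summed to 16479 to 19068 CPM, with 0 of 9 genes called by edgeR, DESeq2 or limma-voom and 0 at an unadjusted p below 0.05. The keratinocyte genes summed to 239 CPM in ctrl 1, 146 in ctrl 2 and 158 in ctrl 3, so that ctrl 1 was the highest ctrl library where it was the lowest for macrophage genes, and to 213, 343 and 292 CPM in caNrf2 1 to 3. Their part in the macrophage result was not tested.

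Because most of the genes moved together, the stretch of 250 bases before their start sites was read for short motifs. RefSeq's promoter table (GRCm38.p6) held 35 promoters of 28 of the 38 genes. The core of PU.1 sites, searched as GAGGAAG on both strands, stood in 10 of the 35 (28.6%), those of Trem2, Pf4, Itgam, Mrc1, Fcgr1, Fcgr3, Laptm5, C1qc and F13a1, against 10.6% of all 32851 promoters. The longer string GAGGAAGT, which contains the first, was in 2 (Pf4 and C1qc), or 5.71% against 2.44%. The core of the antioxidant response element that Nrf2 binds, searched as TGACNNNGC, stood in 3 (C1qb, Folr2 and Ptprc), or 8.57% against 10.2%. The core of the class II Y box, GATTGG, was in 6, or 17.1% against 14.6%, among them H2-Aa and H2-Eb1. Of 5 further strings, GAGGAA was in 45.7% of the 35 against 23.3% of all, AGGAAGT in 28.6% against 7.69%, ATTGG in 34.3% against 33.9%, TGANNNNGC in 31.4% against 35.2% and TATAAA in 8.57% against 12.4%. GAGGAA and AGGAAGT overlap the PU.1 core, ATTGG lies within the Y box core, and TGANNNNGC is a looser form of the Nrf2 string. A match describes letters and not a bound site. Shown are 3 genes that rose and carry the PU.1 core, and 2 class II genes that stayed near 0, with the matched core in capitals (CTTCCTC and CCAATC are the cores read on the opposite strand).
Trem2 (chr17:48346151-48346400, plus strand): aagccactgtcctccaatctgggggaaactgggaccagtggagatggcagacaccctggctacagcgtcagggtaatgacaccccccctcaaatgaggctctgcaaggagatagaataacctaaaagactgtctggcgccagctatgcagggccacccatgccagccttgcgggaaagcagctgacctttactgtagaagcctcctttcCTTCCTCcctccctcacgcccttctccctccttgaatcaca
Itgam (chr7:128062390-128062639, plus strand): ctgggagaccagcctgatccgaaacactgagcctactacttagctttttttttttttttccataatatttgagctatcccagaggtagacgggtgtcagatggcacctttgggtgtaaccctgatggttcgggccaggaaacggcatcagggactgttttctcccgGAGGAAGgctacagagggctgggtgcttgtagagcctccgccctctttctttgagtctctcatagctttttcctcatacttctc
Pf4 (chr5:90772185-90772434, plus strand): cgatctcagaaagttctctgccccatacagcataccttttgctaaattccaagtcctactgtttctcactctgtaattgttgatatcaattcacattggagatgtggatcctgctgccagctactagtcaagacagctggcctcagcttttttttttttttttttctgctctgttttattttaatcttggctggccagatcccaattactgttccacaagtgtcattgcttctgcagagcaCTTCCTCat
H2-Aa (chr17:34287824-34288073, minus strand): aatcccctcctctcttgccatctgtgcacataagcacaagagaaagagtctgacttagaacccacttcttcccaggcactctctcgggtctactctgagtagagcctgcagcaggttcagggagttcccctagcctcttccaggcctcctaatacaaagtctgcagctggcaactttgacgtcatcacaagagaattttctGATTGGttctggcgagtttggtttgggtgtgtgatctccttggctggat
H2-Eb1 (chr17:34305617-34305866, plus strand): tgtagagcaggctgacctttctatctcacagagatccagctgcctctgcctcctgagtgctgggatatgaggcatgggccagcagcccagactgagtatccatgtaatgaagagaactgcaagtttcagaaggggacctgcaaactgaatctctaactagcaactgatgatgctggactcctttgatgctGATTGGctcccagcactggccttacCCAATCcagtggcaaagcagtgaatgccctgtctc

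The genes that define the lineage rose together, 5 of 5. Spi1 and Cx3cr1 passed the filter on low counts only with the caNrf2 libraries, reaching its level in 2 ctrl libraries. Ptprc (ENSMUSG00000026395, chromosome 1, 138062861 to 138175708), which encodes CD45, the phosphatase on all white blood cells, stood at 0.395, 0.826 and 0.562 CPM in ctrl 1 to 3 and at 2.46, 2.79 and 2.76 CPM in caNrf2 1 to 3. The lowest caNrf2 library was thus well above the highest ctrl library, and the change was 4.41-fold (log2 fold change 2.14, SE 0.27, edgeR adjusted p = 0.00077). Csf1r (ENSMUSG00000024621, chromosome 18, 61105572 to 61132149), the receptor for the macrophage growth factor Csf1, was the most abundant of the 5, at 2.96, 5.87 and 4.89 CPM in ctrl and 13.7, 14.8 and 13 CPM in caNrf2. Its change was 3.01-fold (log2 1.59, SE 0.21, adjusted p = 0.00105), the smallest of the group. Spi1, which encodes PU.1, was at 0.169, 0.491 and 0.694 CPM in ctrl and 1.22, 2.12 and 1.31 CPM in caNrf2 (3.47-fold, edgeR adjusted p = 0.0181). Without caNrf2 2, its highest library, Spi1 was no longer called (log2 1.49, adjusted p = 0.0656, over its alternatives 0.00115 to 0.0656). Cx3cr1, the fractalkine receptor, went from 0.302 ± 0.1 to 1.05 ± 0.287 CPM, and Trem2, a lipid-sensing receptor of tissue macrophages, from 0.857 ± 0.477 to 3.6 ± 0.367 CPM (SD, n = 3 each), changes of 3.47-fold and 4.2-fold.

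Among the surface and uptake receptors of macrophages, 6 of 7 rose and 1, Cd163, was all but unread. Cd68, a lysosomal membrane glycoprotein of phagocytes, was the most abundant, at 1.44, 4.2 and 4.03 CPM in ctrl and 9.63, 12.9 and 10.8 CPM in caNrf2 (3.44-fold, log2 1.78, SE 0.33, edgeR adjusted p = 0.00526). Ms4a7 (ENSMUSG00000024672, chromosome 19, 11321039 to 11336146), a tetraspan protein of resident macrophages, changed most in this group. It was at 0.338, 0.669 and 0.595 CPM in ctrl and at 3.65, 3.18 and 2.51 CPM in caNrf2, which is 5.75-fold (log2 2.52, SE 0.28, adjusted p = 0.000384). Adgre1, which encodes the F4/80 antigen, was at 0.31, 1.63 and 1.59 CPM in ctrl and 3.62, 5.88 and 4.08 CPM in caNrf2 (3.84-fold, edgeR adjusted p = 0.0169). Here ctrl 1 stood apart from the other ctrl libraries, and without caNrf2 2 the call was lost (log2 1.70, adjusted p = 0.0546, over its alternatives 0.000601 to 0.0546). The mannose receptor gene Mrc1 rose from 3.47 ± 1.7 to 10.4 ± 1.74 CPM and the folate receptor gene Folr2 from 0.717 ± 0.397 to 2.65 ± 0.306 CPM (SD, n = 3 each).

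Cd14, the co-receptor for bacterial lipopolysaccharide, had the smallest fold change of the 6 that rose. It was at 1.63, 2.28 and 1.82 CPM in ctrl and 2.98, 3.67 and 3.61 CPM in caNrf2, a change of 1.78-fold (log2 0.84, SE 0.19, edgeR adjusted p = 0.0146). The groups did not overlap, but the call was lost without ctrl 3 (log2 0.80), caNrf2 2 (0.77) or caNrf2 3 (0.79), with an adjusted p of 0.00347 to 0.0575 over its alternatives. Cd163, the scavenger receptor for haemoglobin complexes, had 1 expected count in caNrf2 1 and 0 in each of the other libraries, where 0 counts allow up to 0.0669 to 0.0991 CPM by counting error alone (3 counts).

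Integrin and general leukocyte surface genes rose in 5 of 5. Itgam (ENSMUSG00000030786, chromosome 7, 128062640 to 128128160), the CD11b chain of the complement receptor integrin, had the highest mean CPM of the 5, though not the highest TPM, and the smallest fold change. It stood at 0.93, 2.92 and 3.01 CPM in ctrl and 4.82, 7.08 and 4.6 CPM in caNrf2 (2.4-fold, log2 1.27, SE 0.37, edgeR adjusted p = 0.0423). That call was lost without any 1 of 5 libraries, all except ctrl 1, with log2 fold changes from 1.03 (without caNrf2 2) to 1.501 (without ctrl 2) and an adjusted p of 0.0506 to 0.128 (0.0022 to 0.128 over its alternatives). Its partner Itgb2, the common beta2 chain, was at 0.535, 1.92 and 1.88 CPM in ctrl and 4.36, 4.08 and 3.66 CPM in caNrf2 (2.78-fold, edgeR adjusted p = 0.023). It was not called without caNrf2 1 (log2 1.41) or caNrf2 2 (1.46), with an adjusted p of 0.000363 to 0.0645 over its alternatives.

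Cd53, a tetraspanin of white blood cells, was at 0.479, 0.937 and 0.661 CPM in ctrl and 2.84, 2.79 and 2.9 CPM in caNrf2 (4.04-fold, log2 2.01, SE 0.25, edgeR adjusted p = 0.00073). Cd52, a small glycoprotein of lymphocytes and myeloid cells, had the highest fold change of all 38 genes, 6.42-fold, but on few reads. It held 1, 2 and 3 expected counts in ctrl and 12, 14 and 20 in caNrf2 (log2 2.68, SE 0.49, adjusted p = 0.00526), and it passed the filter only through the caNrf2 group. Cd84, an adhesion receptor of the SLAM family, rose 2.91-fold from 1.22 ± 0.388 to 3.52 ± 0.237 CPM (SD, n = 3 each).

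**Figure D2:**
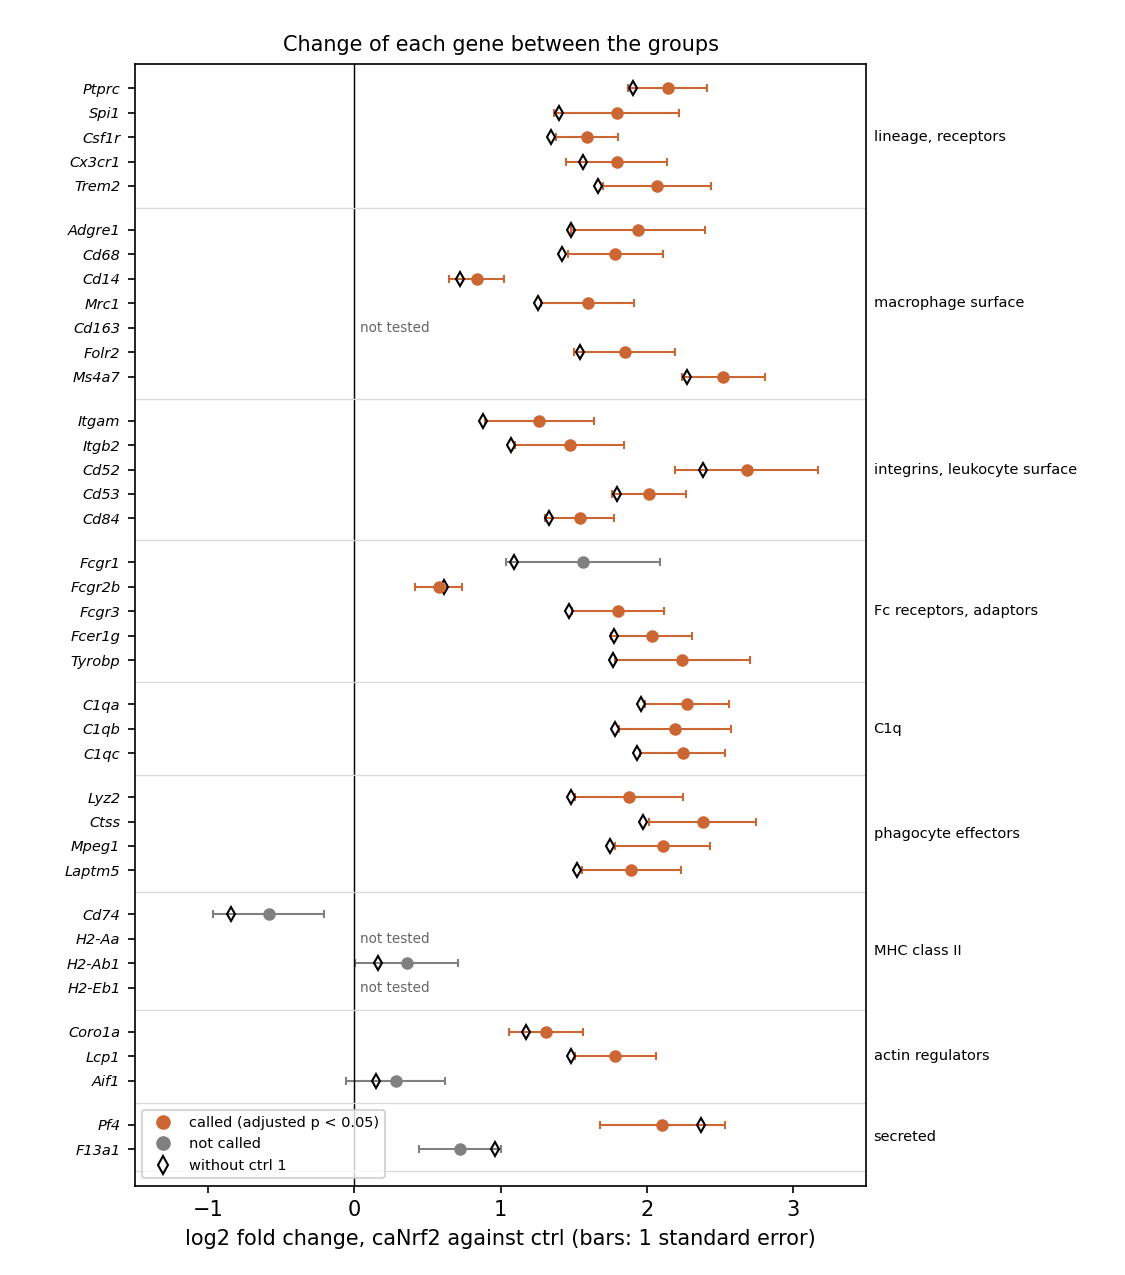
Log2 fold change of each gene, caNrf2 against ctrl, from the edgeR fit, with bars of 1 standard error; orange points are called, grey points are not, and open diamonds give the value when ctrl 1 is left out. All called genes lie between 0.58 and 2.68, and leaving out ctrl 1 moves most of them toward 0 without changing their sign.

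The plot of changes shows how much the low ctrl 1 library weighs. Without it, 29 of the 38 genes were called higher and 0 lower, with Fcgr2b losing its call, and the median log2 fold change went from 1.804 to 1.48. The effect of Lyz2, for example, went from 1.88 to 1.48 on the log2 scale while its edgeR adjusted p went from 0.00735 to 0.000194. The lowest count of calls came without caNrf2 2, when 24 of the 38 were called higher and 0 lower.

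Receptors for the constant part of IgG and the adaptors that signal for them rose in 4 of 5. Tyrobp (ENSMUSG00000030579, chromosome 7, 30413788 to 30417577), which encodes the adaptor DAP12 used by Trem2, was at 0.254, 1.25 and 1.82 CPM in ctrl and 5.87, 5.12 and 4.6 CPM in caNrf2 (4.73-fold, log2 2.24, SE 0.46, edgeR adjusted p = 0.00928). Fcer1g, the common gamma chain of Fc receptors, had the smallest adjusted p of the 5. It was at 0.535, 0.893 and 1.16 CPM in ctrl and 4.03, 3.61 and 2.9 CPM in caNrf2 (4.09-fold, adjusted p = 0.00112 by edgeR). Fcgr3, an activating receptor, rose 3.49-fold from 1.04 ± 0.467 to 3.65 ± 0.456 CPM (SD, n = 3 each).

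Fcgr2b, the inhibitory receptor, had the smallest change of all genes that rose. It was at 3.55, 2.88 and 3.63 CPM in ctrl, so that ctrl 1 was not low, and at 5.3, 5.32 and 4.35 CPM in caNrf2. The change was 1.49-fold (log2 0.58, SE 0.16, edgeR adjusted p = 0.0339). It was not called with the replicate number as a block (log2 0.58, adjusted p = 0.0587), nor without ctrl 1 (0.61), ctrl 2 (0.47), ctrl 3 (0.63), caNrf2 1 (0.53) or caNrf2 2 (0.52), with an adjusted p of 0.0182 to 0.112 over its alternatives. Fcgr1, the high-affinity receptor, held 1, 8 and 6 expected counts in ctrl and 11, 24 and 16 in caNrf2, and was not called (log2 1.56, SE 0.52, adjusted p = 0.0655). Fcgr2b and Fcgr3 lie near each other on chromosome 1 (170958617 to 170976547 and 171051174 to 171064935) and are close relatives, so the division of shared reads between them is uncertain.

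The 3 chains of C1q, the recognition molecule of the classical complement pathway, rose in step. C1qa, C1qc and C1qb stand side by side on chromosome 4, from 136895917 to 136898803, from 136889804 to 136893065 and from 136880129 to 136886187. C1qa was at 0.648, 1.52 and 1.59 CPM in ctrl and 5.63, 6.99 and 5.6 CPM in caNrf2 (4.84-fold, log2 2.28, SE 0.29, edgeR adjusted p = 0.000788). C1qc was at 0.648, 1.47 and 1.59 CPM in ctrl and 5.82, 6.74 and 5.04 CPM in caNrf2 (4.74-fold, adjusted p = 0.000875 by edgeR). C1qb was at 0.395, 1.23 and 1.75 CPM in ctrl and 4.95, 5.7 and 4.65 CPM in caNrf2 (4.57-fold, adjusted p = 0.00441 by edgeR). Per length the chains stood at like levels, at means of 11.6, 9.25 and 9.51 TPM for C1qa, C1qb and C1qc in caNrf2 and 2.48, 2.12 and 2.09 TPM in ctrl. All 3 kept their calls when any single library was left out.

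Lysosomal and effector genes of phagocytes had the highest summed CPM of the roles in every library and rose in 4 of 4. Lyz2 (ENSMUSG00000069516, chromosome 10, 117277334 to 117282274), which encodes the lysozyme of myeloid cells, was by far the most abundant of the 38 genes. It was at 10.4, 35.2 and 34 CPM in ctrl and at 103, 104 and 86.2 CPM in caNrf2 (3.68-fold, log2 1.88, SE 0.37, edgeR adjusted p = 0.00735). Per length it reached 149 ± 14.4 TPM in caNrf2 and 42.3 ± 22.4 TPM in ctrl (SD, n = 3 each), against 29.8 ± 1.47 and 5.96 ± 3.37 TPM for the next, Ctss. Ctss, the cathepsin that trims the class II invariant chain, was at 1.44, 5 and 5.65 CPM in ctrl and 22.6, 21.1 and 19.3 CPM in caNrf2. Its 5.21-fold change was the largest here (log2 2.38, SE 0.37, adjusted p = 0.0022). Mpeg1, the pore-forming perforin-2 of macrophages, rose 4.31-fold to 20.9 ± 3.95 CPM, and Laptm5, a lysosomal membrane protein of blood cells, 3.72-fold to 9.52 ± 1.52 CPM (SD, n = 3 each).

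Of the 4 MHC class II genes 2 could be tested, and 0 of these were called by edgeR, DESeq2 or limma-voom, or had an unadjusted p below 0.05 in edgeR. The chains H2-Aa, H2-Ab1 and H2-Eb1 lie within chromosome 17, from 34263209 (start of H2-Ab1) to 34316199 (end of H2-Eb1). H2-Aa held 0, 2 and 1 expected counts in ctrl and 6, 4 and 5 in caNrf2. H2-Eb1 held 3, 9 and 6 counts in ctrl and 12, 11 and 10 in caNrf2. Every caNrf2 library was thus above every ctrl library in these 2 genes, at levels too low for the test. In a fit without the filter their log2 fold changes were 2.05 (SE 0.95, adjusted p = 0.185) and 0.70 (SE 0.52, adjusted p = 0.465) by edgeR.

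H2-Ab1 was at 0.225, 0.29 and 0.429 CPM in ctrl and 0.298, 0.428 and 0.46 CPM in caNrf2, and the groups overlapped (log2 0.36, SE 0.35, edgeR adjusted p = 0.505). Cd74 (ENSMUSG00000024610, chromosome 18, 60803848 to 60812646), the invariant chain that escorts class II molecules, was the only one of the 35 tested genes with a negative fold change. It was at 2.11, 2.99 and 5.09 CPM in ctrl and 2.03, 1.4 and 3.32 CPM in caNrf2, with wide overlap and no call (log2 -0.58, SE 0.38, edgeR adjusted p = 0.306). Of 7 further class II pathway genes 2 could be tested and 0 were called by edgeR, DESeq2 or limma-voom, with 0 at an unadjusted p below 0.05, and Ciita, the transactivator, held reads in ctrl 2 alone, at 0.0223 CPM. The most abundant of the 7, the peptide-loading chain H2-DMa, was at 3.07 ± 0.304 CPM in ctrl against 2.74 ± 0.702 CPM in caNrf2 libraries (SD, n = 3 each).

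Of the actin regulators of white blood cells, Lcp1 and Coro1a rose. Lcp1, which encodes the actin-bundling L-plastin, was at 2.87, 6.2 and 6.61 CPM in ctrl and 15.1, 21.9 and 17 CPM in caNrf2 (3.44-fold, log2 1.78, SE 0.28, edgeR adjusted p = 0.0023). Coro1a, a coronin, was at 0.874, 1.23 and 1.06 CPM in ctrl and 3.22, 2.75 and 1.91 CPM in caNrf2 (2.47-fold, adjusted p = 0.00695 by edgeR). Aif1, which encodes the macrophage protein IBA1, did not follow. It was at 0.225, 0.357 and 0.231 CPM in ctrl and 0.379, 0.361 and 0.276 CPM in caNrf2, with overlap (log2 0.28, SE 0.34, edgeR adjusted p = 0.598). Its reads were few, 31 expected counts over the ctrl libraries and 42 over the caNrf2 libraries, and 28.3% and 67.7% of these were assigned to transcripts that GENCODE M21 classes as protein-coding. For 31 of the 38 genes that share was at least 90% in both groups, with Cd163, which had no ctrl counts, included among them. The 7 genes below it in a group were Aif1 and the called genes Itgam, Ms4a7, Ptprc, Coro1a, Itgb2 and Trem2. Itgam was at 69.6% in ctrl and 75.7% in caNrf2, Ptprc at 75.4% and 91.5%, and Coro1a at 73.7% and 93.8%.

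Of the 2 secreted products 1 rose, Pf4, which passed the filter on low counts only through the caNrf2 group. Pf4, a chemokine of platelets and of some tissue macrophages, was at 0.197, 0.156 and 0.0661 CPM in ctrl and 0.757, 0.721 and 0.414 CPM in caNrf2 (4.3-fold, log2 2.11, SE 0.43, edgeR adjusted p = 0.00868), on 2 to 7 expected counts per ctrl library. F13a1, the A chain of coagulation factor XIII, was at 1.16, 0.759 and 0.694 CPM in ctrl and 1.43, 1.13 and 1.75 CPM in caNrf2. Here ctrl 1 was the highest ctrl library and overlapped caNrf2 2, and the gene was not called (log2 0.72, SE 0.28, edgeR adjusted p = 0.101). Of 7 platelet genes, Gp9 was at 0 in every library, and 1, the integrin gene Itga2b, rose, from 2.62 ± 0.561 to 4.15 ± 0.325 CPM (SD, n = 3 each; edgeR adjusted p = 0.0387).

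**Figure D3:**
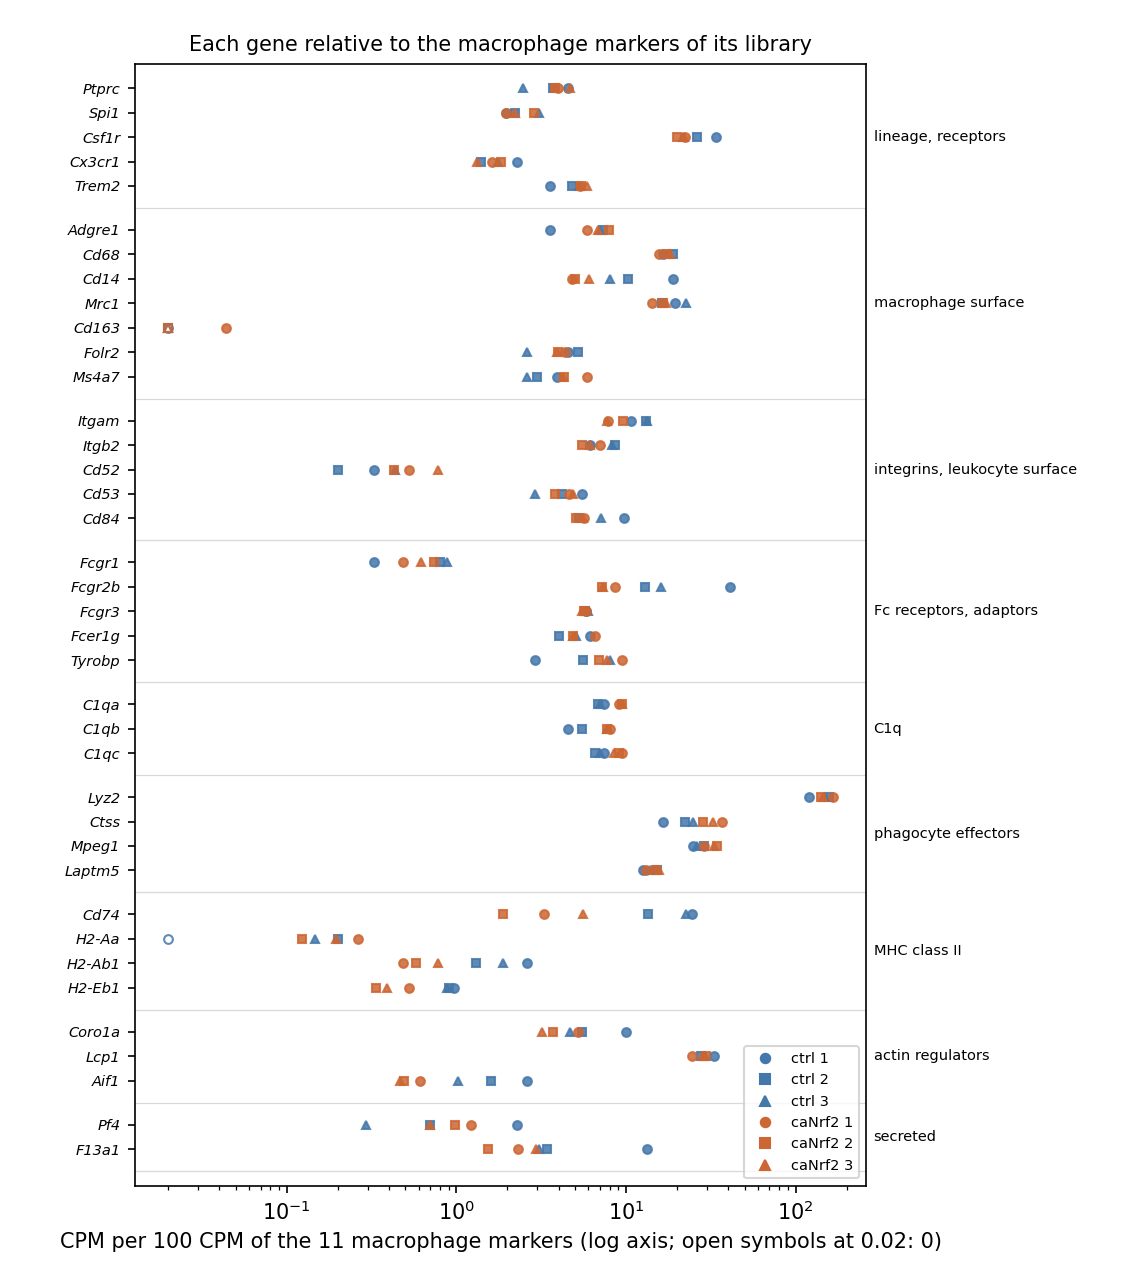
CPM of each gene per 100 CPM of 11 macrophage markers summed in the same library, on a log axis, with ctrl libraries in blue and caNrf2 libraries in orange. In 23 rows the blue and orange symbols overlap, while Cd74, Fcgr2b, Cd14 and Aif1 lie lower in caNrf2.

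To see which genes kept their proportion, each was set against the sum of 11 macrophage markers (Ptprc, Spi1, Csf1r, Adgre1, Cd68, Itgam, Fcer1g, Tyrobp and the C1q chains) in the same library, as drawn in the plot of ratios. These ratios are given as values, without a test, and the 11 genes are part of their own denominator. The sum itself was 8.68, 22.3 and 22.7 CPM in ctrl and 61.7, 73.8 and 59.4 CPM in caNrf2. On this scale 23 of the 38 genes overlapped between the groups, 7 were higher in every caNrf2 library and 8 were lower. The ratios were not taken over all genes, so no share of all genes stands beside these counts. Because the mean sum was 3.63-fold higher in caNrf2, a gene with unchanged CPM is lower on this scale. Csf1, which was not called, went from a mean of 5014.7 per 100 in ctrl to 1243.5 in caNrf2. Fcgr3 was at 5.71 to 5.98 per 100 in ctrl and 5.47 to 5.78 in caNrf2, and Cd68 was at 16.6 to 18.8 and 15.6 to 18.2. Lyz2 was at 119 to 158 in ctrl and 141 to 166 in caNrf2.

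The 8 lower genes were Cd74, H2-Ab1, H2-Eb1, Fcgr2b, Cd14, Itgam, Aif1 and F13a1. Cd74 was at 24.4, 13.4 and 22.4 per 100 in ctrl 1 to 3 and at 3.29, 1.89 and 5.58 in caNrf2 1 to 3. Fcgr2b was at 40.9 in ctrl 1, 12.9 in ctrl 2 and 16 in ctrl 3, against 7.21 to 8.59 in caNrf2. Cd14 was at 18.8 in ctrl 1, 10.2 and 8.02 in ctrl 2 and 3 and 4.82 to 6.09 in caNrf2. The marker sum was lowest in ctrl 1, so a gene with like CPM across the ctrl libraries has its highest ratio there by arithmetic. The 7 higher genes were the 3 C1q chains, Ctss, Mpeg1, Ms4a7 and Trem2, of which Ctss was at 16.6 to 24.9 per 100 in ctrl and 28.6 to 36.6 in caNrf2.

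Genes of the phagocyte that were not among the 38 were described in the same way. Of 40 other macrophage genes 20 rose, 0 fell, 10 were not called and 10 had too few counts, with a median log2 fold change of 1.66 over the 30 tested. The subunit gene of the phagocyte oxidase Ncf1 rose 3.4-fold, from 0.608 ± 0.282 to 2.08 ± 0.199 CPM, and its partner Cybb 3.36-fold; these genes were chosen after their values were seen. Slc11a1, a metal transporter of the phagosome, was at 0.535, 0.714 and 1.19 CPM in ctrl and 14.3, 14.4 and 10.5 CPM in caNrf2 (16.4-fold, adjusted p = 1.24e-05 by edgeR). Per 100 CPM of the macrophage markers, Slc11a1 was at 3.2 to 6.17 in ctrl and 17.8 to 23.2 in caNrf2, whereas Ncf1 was at 3.25 to 3.5 and 3.12 to 3.29. The gene of the 40 with the highest mean CPM, though not the highest TPM, Sirpa, which fibroblasts also express, was at 119 ± 14.2 CPM in the ctrl and 110 ± 8.3 CPM in the caNrf2 libraries (SD, n = 3 each; log2 -0.10, edgeR adjusted p = 0.51).

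Of 9 dendritic and Langerhans cell genes 1 rose, the integrin gene Itgax, which macrophages share, from 0.444 ± 0.299 to 2.95 ± 0.381 CPM (SD, n = 3 each; 6.47-fold, edgeR adjusted p = 0.00266). The gene of this list with the highest mean CPM over all 6 libraries, the dendritic cell factor Zbtb46, was at 1.43 ± 0.562 and 2.29 ± 0.446 CPM and was not called (adjusted p = 0.148), and 6 did not reach the filter level of 0.248 CPM in any library, among them Clec9a, Cd207 and Ccr7. Of 8 microglia genes 1 rose, Sall1 (0.0262 ± 0.0284 to 0.567 ± 0.121 CPM; SD, n = 3 each), and 1 fell. Sall1 held 2, 1 and 0 expected counts in ctrl and passed the filter only through the caNrf2 group. Tmem119 and Olfml3, of the same list, were abundant in both groups, at 136 to 172 and 185 to 254 CPM in single libraries, and not called by edgeR. Among 7 osteoclast and giant cell genes 2 rose, the proton pump subunit gene Atp6v0d2 (5.1-fold) and the gelatinase gene Mmp9 (2.03-fold), and 1 fell, Ctsk, which was at 210 ± 41.9 and 142 ± 26.2 CPM (SD, n = 3 each).

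Products of activated macrophages rose in 5 of 16 and fell in 0. The chemokine gene Ccl9 rose 1.79-fold (edgeR adjusted p = 0.00425) and the elastase gene Mmp12 2.79-fold, from 3.87 ± 1.66 to 10.8 ± 1.94 CPM (SD, n = 3 each). The most abundant, the secreted phosphoprotein gene Spp1, rose from 248 ± 59.5 to 400 ± 10.9 CPM. The 11 macrophage markers together had a mean of 17.9 CPM in ctrl and 65 CPM in caNrf2. Which cells of the cultures made Spp1 was not tested. The interleukin gene Il1b was at 0 in ctrl and at most 0.0541 CPM in caNrf2, and Chil3, Retnla and Nos2 were at 0 in all 6 libraries. Of 10 genes for factors that feed or attract macrophages, 4 rose and 1, the chemokine gene Ccl7, fell (0.741-fold). Csf1, the main ligand of Csf1r, was at 767 ± 128 CPM in the ctrl and 804 ± 51.3 CPM in the caNrf2 libraries (SD, n = 3 each) and was not called (log2 0.07, SE 0.12, edgeR adjusted p = 0.727). Il34, its other ligand, chosen after its values were seen, rose 1.76-fold from 3.02 ± 0.32 to 5.32 ± 0.549 CPM. Cx3cl1, the ligand of Cx3cr1, rose 2.05-fold from 9.94 ± 2.32 to 20.3 ± 1.87 CPM (SD, n = 3 each; edgeR adjusted p = 0.0025). Csf3, a growth factor of granulocytes, was called higher (adjusted p = 0.0023 by edgeR), with a mean of 0.0576 ± 0.032 CPM over the ctrl and 0.532 ± 0.142 CPM over the caNrf2 libraries (SD, n = 3 each). It held 3, 1 and 2 expected counts in ctrl and passed the filter on low counts only through the caNrf2 group.

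**Figure D4:**
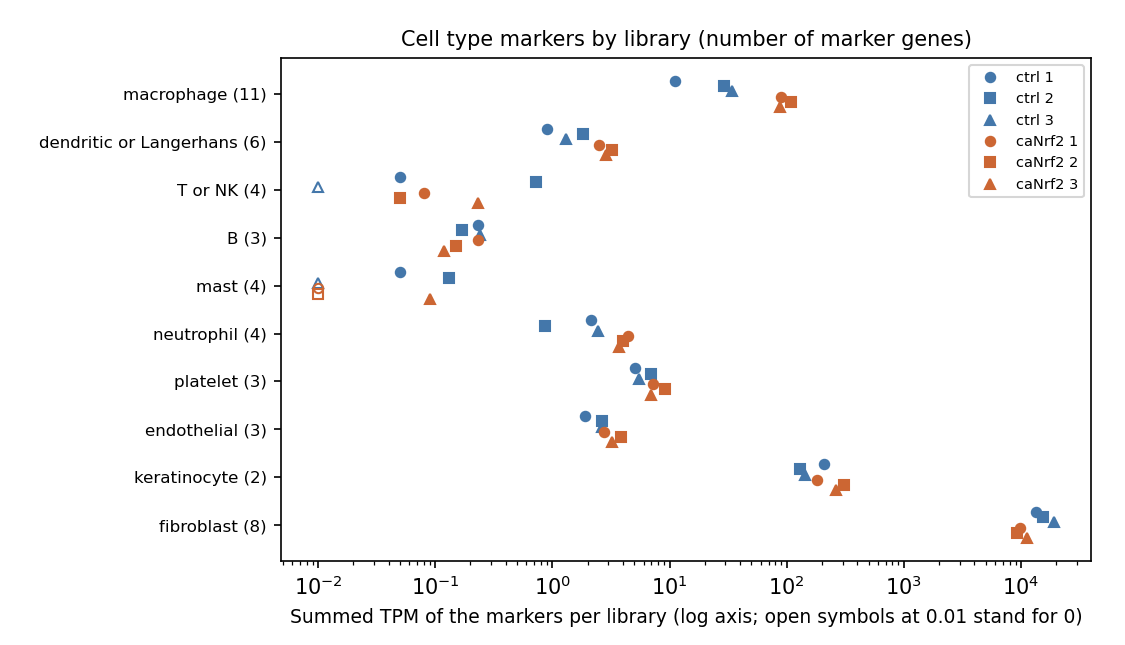
Summed TPM of the markers of the cell types shown in each library, on a log axis, with the number of marker genes in brackets; ctrl libraries are blue, caNrf2 libraries orange, and open symbols at the left stand for 0. Macrophage markers lie between 11.1 and 34.2 TPM in ctrl and 87.6 and 109 TPM in caNrf2, and the T, B and mast cell markers lie below 1 TPM in all libraries.

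The plot of cell type markers gives the other white blood cells. The 4 T and natural killer cell markers summed to at most 0.73 TPM in any library, the 3 B cell markers to at most 0.24 TPM and the 4 mast cell markers to at most 0.13 TPM. The 4 neutrophil markers summed to 2.14, 0.87 and 2.45 TPM in ctrl 1 to 3 and to 4.41, 3.98 and 3.72 TPM in caNrf2 1 to 3, a ratio of means of 2.22. The 6 dendritic or Langerhans cell markers, which include Itgax, summed to 0.9, 1.81 and 1.32 TPM in ctrl and 2.49, 3.24 and 2.87 TPM in caNrf2, a ratio of 2.13. In both lists each caNrf2 sum was thus above each ctrl sum, and their part in the macrophage result was not tested. Of the longer lists 0 of 13 T and natural killer cell genes, 0 of 7 B cell genes, 0 of 10 neutrophil genes, 0 of 5 eosinophil and basophil genes and 0 of 6 erythroid genes were called by edgeR, DESeq2 or limma-voom. Only 2 of the first list and 2 of the neutrophil list could be tested, and of these Cd28, Lck and S100a8 had an unadjusted p below 0.05 in edgeR. Of 10 mast cell genes Kit and Il1rl1 rose (2.19-fold and 2.3-fold), while the mast cell proteases Cpa3, Mcpt4 and Tpsb2 were at 0 in every library.

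Other cell types of skin were read in the same way. Among 9 endothelial genes 1 rose, Cdh5, and among 8 keratinocyte genes 1, Krt14, and among 8 melanocyte and Schwann cell genes 1, with 0 falling in each by edgeR. Skeletal muscle genes rose in 7 of 11 with a median log2 fold change of 0.77, and fibroblast genes fell in 6 of 10 and rose in 2. The summed TPM of the macrophage markers was 3.83-fold higher in caNrf2 on average, beside 2.22-fold for the neutrophil, 2.13-fold for the dendritic or Langerhans cell, 1.33-fold for the platelet, 1.37-fold for the endothelial and 1.57-fold for the keratinocyte markers and 0.628-fold for the fibroblast markers. All 11 macrophage markers are among the 38 genes, were called higher and were chosen with earlier results of these data known. Genes that rose little or were not called, such as Cd14, Fcgr2b and Aif1, are not in that sum, so the 3.83-fold depends on the choice. No neutrophil marker exceeded 0.541 CPM in any library. Whether these lists share a source with the macrophage genes was not tested.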

How the data were processed

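RNA of 6 cultures (3 ctrl, 3 caNrf2) was analysed from 1 table per library. Per the submitters' processing notes, RSEM 1.2.21, CASAVA 1.8 and the build GRCm38 were used; the aligner is not given in the sources used here, nor is the strand setting, so reads of overlapping or antisense genes cannot be told apart. The authors deposited expected counts per transcript and TPM, per the file headers. RSEM divides shared reads by estimated abundance, so values of close paralogs are less certain.

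Expected counts were summed per gene and rounded. Symbols came from a reference table (42462 of 43629 IDs; 247 of 248 listed genes found). edgeR 4.0.16 (R 4.3.3; filterByExpr with minimum count 10 and total 15, TMM, two-sided quasi-likelihood F test, no replicate block) gave log2 fold changes and adjusted p-values over all genes; SEs come from the F statistic. CPM uses TMM-scaled totals; summed TPM serves comparisons between genes. Intervals and floors cover counting error only. Alternatives were other size factors and filters, DESeq2 1.42.0, limma-voom 3.58.1, posterior mean counts, a replicate block and each library left out. The genes, lists and motifs were chosen with earlier results of these data known. Each of the 38 genes is accounted for, with every library's value for the gene of highest mean CPM, the most and least changed and the uncalled genes of each role. Of each list of other genes, the rule names the gene of highest mean CPM and the 2 rising and 2 falling called genes of smallest adjusted p; these are named where a result turns on them, and any further gene of those lists was chosen after its values were seen. Lilrb4a was not analysed here. A few genes of the other lists are counted but not reported by name here.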

Additional observations from a re-analysis of the deposited data

How the results depend on the processing

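Of the 38 genes, 30 were called higher, and 30 were called also by DESeq2 and limma-voom, without a filter, with posterior mean counts, and with total-count, upper-quartile or DESeq2 scaling. The stricter filter (mean of at least 1 CPM) tested 28 of the 38 and called 26. Leaving out a library gave 24 to 29 called higher, and 0 were called lower under any alternative. None of the 35 tested genes changed sign under any alternative. Over all genes, 1917 were called higher (1342 to 1755 with a library left out), and 1385 lower (823 to 1143), with 823 without ctrl 3 and 864 without caNrf2 2.

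The replicate numbers were not taken to pair the samples, since they are not said to do so. Deviations of same-numbered libraries from their group means correlated at 0.214, 0.209 and 0.0953 across genes. Of the different-numbered pairs, ctrl 2 with caNrf2 3 was at 0.112 and the rest lay between -0.242 and -0.0118. These values do not settle whether the numbers pair the samples. With the replicate number as a block, 29 of the 38 genes were called higher and 0 lower, Fcgr2b being the exception, and over all genes 1888 were higher and 1330 lower. Depth limits H2-Aa, H2-Ab1, H2-Eb1, Cd163, Cd52, Aif1 and Fcgr1, each with at most 24 expected counts in any library.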
